A study of Mus musculus with 4 samples.

Results

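The genes described are 8 factors that set how long cytokine messages last: Zfp36, Zfp36l1, Zfp36l2, Zc3h12a, Zc3h12c, Rc3h1, Elavl1 and Khsrp. Every probe whose accession belongs to these symbols was taken, in both channels of all arrays. This gave 8 of 23571 genes or accessions measured, and 11 probes of the 39429 on the array, of which all 11 passed the filter on dim probes, which kept 28637. Rc3h1, Elavl1 and Khsrp have 2 probes each and the other genes 1 each. Where a gene has 2 probes it is read by its brighter one, and the other is given beside it. The brighter probes are A_55_P2096305 for Rc3h1, A_55_P2034097 for Elavl1 and A_51_P281700 for Khsrp, and the dimmer ones A_52_P475886, A_52_P429534 and A_55_P2149881 in the same order.

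Cytokine messages such as those of TNF and interleukin-6 carry AU-rich or stem-loop elements in their untranslated ends, and RNA-binding proteins that dock there set how fast the message is destroyed. The proteins followed here work on such messages in opposite ways. Tristetraprolin (gene Zfp36) and its paralogs (Zfp36l1, Zfp36l2) bind AU-rich elements and bring in the deadenylase that shortens the poly(A) tail, regnase-type nucleases (Zc3h12a, Zc3h12c) cut messages, roquin (Rc3h1) binds stem-loops and recruits deadenylase, KSRP (Khsrp) promotes decay of AU-rich messages, and HuR (Elavl1) protects them.

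The study set macrophages lacking Cdk5r1, the gene of the CDK5 activator p35, against wildtype macrophages, at rest and after bacterial lipopolysaccharide (LPS). The 4 groups were knockout cells with LPS at 100 ng/ml for 6 h, knockout cells at basal state, wildtype cells with the same LPS treatment, and wildtype cells at basal state. All were grown from bone marrow of male mice, 6 weeks old, in 25 ng/ml of the cytokine GM-CSF over 7 days, and 10 µg of total RNA was labelled. The labels give the strain name B6.129S4-Cdk5r1tm1Lht/J for both genotypes. There were 2 LPS arrays and 2 basal arrays with 2 colours each: knockout RNA was always in Cy5 and wildtype RNA always in Cy3. The labels call the arrays biological replicates and name no animals or pools, so the p-values measure only the spread between these arrays, which may be technical.

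Cdk5r1 has 2 probes. Their log2 ratios of knockout over wildtype were -2.55 and -2.29 for 1 probe and -2.0 and -2.03 for the other on the LPS arrays, and -0.37 and -0.59, and -0.47 and -0.51, on the basal arrays. Whether the probes lie in the deleted stretch is not known here. All 8 macrophage markers measured were well above background in every channel and array. All 8 dendritic cell markers were too. Of 12 neutrophil markers, 11 were well above background in every measurement, and Retnlg in 4 of 8. Those 4 were all in wildtype cells, so Retnlg passed the filter through the wildtype channel alone. The summed level of the 12 neutrophil markers was 108989 to 110365 in knockout LPS cells, 56436 to 86071 in knockout basal cells, 289142 to 321360 in wildtype LPS cells and 116353 to 178067 in wildtype basal cells (linear normalised intensity). In such bulk RNA, fewer cells of a type and less RNA per cell cannot be told apart. All 4 arrays came from 1 slide and 1 scan, so no batch term could be fitted.

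Of the 8 genes, 7 matched an entry in the RefSeq promoter table of build GRCm38.p6, with 8 promoters in all, and Zfp36l2 did not. Each covers 250 bases before the annotated start and 50 bases after it. Zc3h12c has 2 of them, of which the first in the table is shown. The promoters of the 3 genes that rose under LPS are printed in the direction of transcription, because their rise is described below. Capitals mark a match to the CArG box, the binding motif of serum response factor.
Zfp36 (chr7:28379179-28379478, minus strand): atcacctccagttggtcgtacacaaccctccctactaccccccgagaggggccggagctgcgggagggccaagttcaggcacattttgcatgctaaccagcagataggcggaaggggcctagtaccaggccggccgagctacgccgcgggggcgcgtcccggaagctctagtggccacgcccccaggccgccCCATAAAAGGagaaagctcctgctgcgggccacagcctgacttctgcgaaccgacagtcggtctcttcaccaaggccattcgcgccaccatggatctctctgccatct
Zc3h12a (chr4:125127832-125128131, minus strand): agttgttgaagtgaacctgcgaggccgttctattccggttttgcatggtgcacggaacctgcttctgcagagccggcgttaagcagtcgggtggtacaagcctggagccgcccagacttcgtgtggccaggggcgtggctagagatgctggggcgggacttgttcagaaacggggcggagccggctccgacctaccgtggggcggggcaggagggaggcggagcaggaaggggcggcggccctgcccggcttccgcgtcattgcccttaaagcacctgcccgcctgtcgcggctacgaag
Zc3h12c (chr9:52168357-52168656, minus strand): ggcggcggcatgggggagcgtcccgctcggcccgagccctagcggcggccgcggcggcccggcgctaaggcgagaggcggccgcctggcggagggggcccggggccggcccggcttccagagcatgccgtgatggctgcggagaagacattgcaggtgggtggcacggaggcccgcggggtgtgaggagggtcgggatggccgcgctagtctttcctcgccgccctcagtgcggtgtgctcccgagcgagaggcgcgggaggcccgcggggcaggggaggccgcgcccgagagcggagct

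The Zfp36 match, CCATAAAAGG, lies at -58 to -49 relative to the start, and 1.63% of all 32851 promoters in the table held a CArG box. All promoters were searched on both strands for 4 motifs. These were the NF-kappaB consensus (4.51% of promoters), the CArG box, TGANTCA (7.81%), and TGACGTCA of CREB and ATF (1.79%). With any base at N, TGANTCA is wider than the AP-1 site, and its share counts the wider matches too. Rc3h1 held TGACTCA, the AP-1 site, at -133 to -127 relative to its start, and Zfp36l1 held TGATTCA, a wider match, at -129 to -123. These letters were in no other window of the 7 genes, and no 2 matches overlapped. A match describes the letters of a window and is no measurement of binding. The G and C content of the printed windows was 63.7% for Zfp36, 65.7% for Zc3h12a and 77.7% for Zc3h12c, against a median of 52.7% over all promoters in the table.

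LPS changed the decay factors in opposite directions and by very different amounts. Zfp36l2 fell by over an order of magnitude, while Zc3h12a, Zfp36 and Zc3h12c rose. Zfp36l1, Elavl1 and Khsrp did not pass the test in either genotype, and Rc3h1 passed by only its dimmer probe. Levels are log2 of normalised intensity. The background correction adds an offset of 50 to each intensity, so differences of dim probes are understated. SE is the standard error of the moderated limma fit, and the adjusted p is limma's, with Benjamini-Hochberg adjustment over all 28637 probes and a threshold of 0.05.

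**Figure D1:**
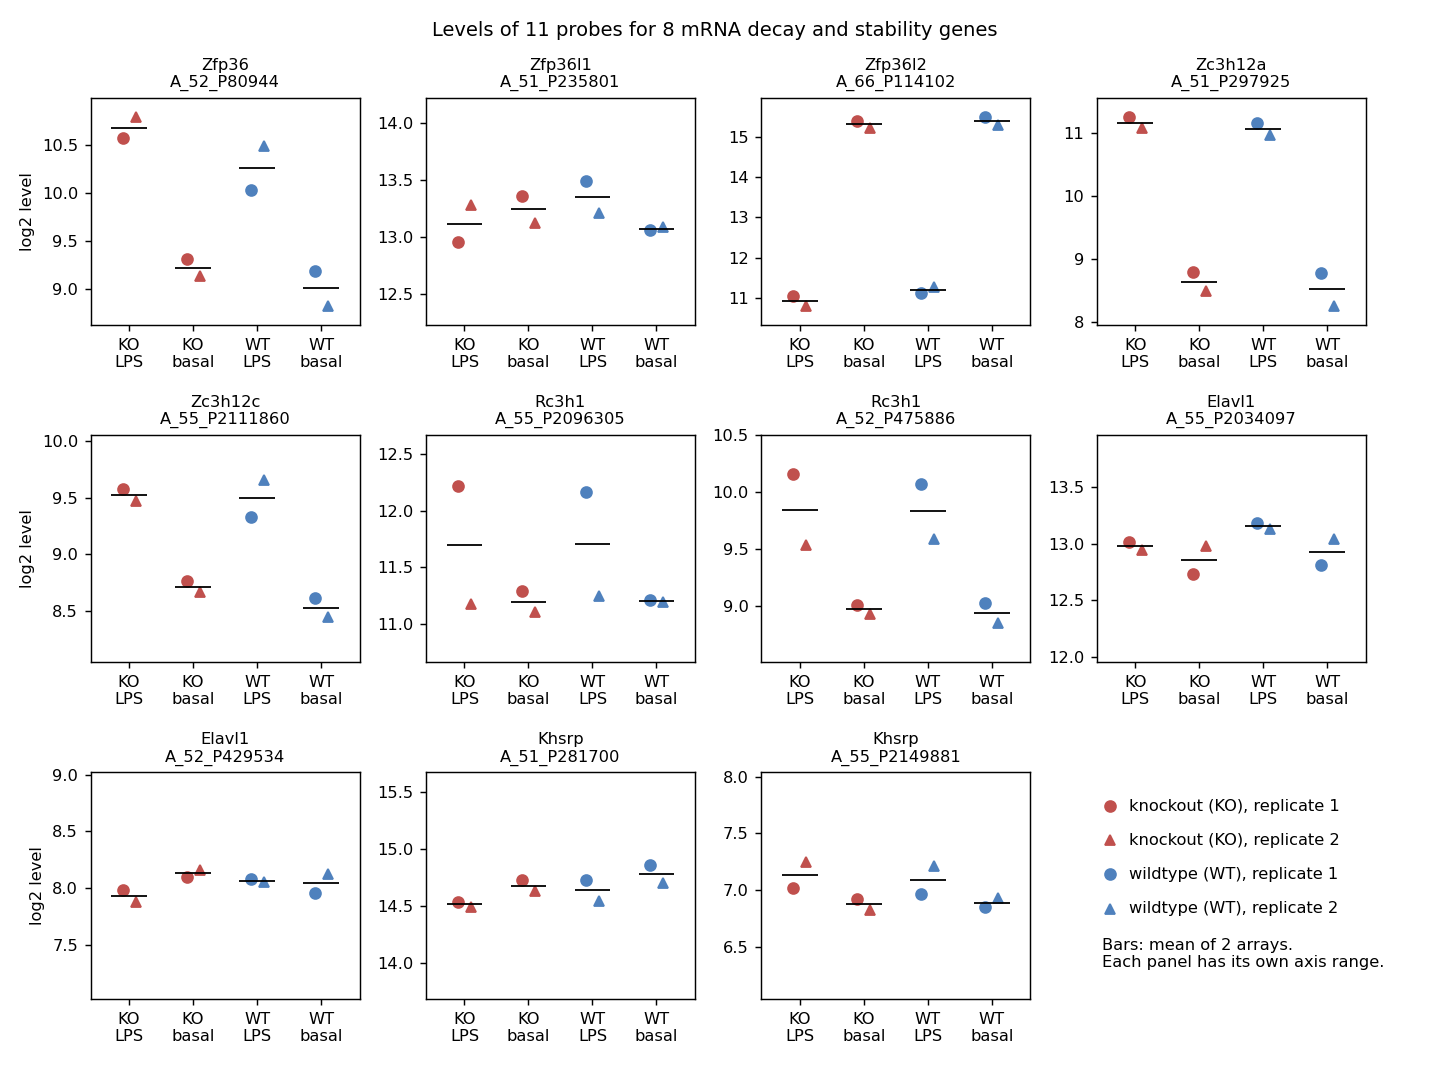
Log2 level of each of the 11 probes in knockout (red) and wildtype (blue) cells, LPS left of basal in each genotype. Circles are replicate 1, triangles replicate 2 and bars the mean of 2 arrays, and each panel has its own axis range. Zfp36l2 sits near 11 on all LPS measurements and above 15 on all basal ones.

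Zfp36l2, a tristetraprolin paralog best known from blood cell development, had the largest change. Its level was 11.07 and 10.81 in knockout LPS cells, against 15.38 and 15.22 in knockout basal cells. In wildtype cells it was 11.14 and 11.29 with LPS, against 15.49 and 15.29 at basal state. All 4 LPS measurements lay below all 4 basal ones. The fall was 20.6-fold in knockout cells (95% confidence interval 15.9 to 26.6, log2 change -4.36 ± 0.14, SE, n = 2, limma adjusted p = 0.000461). It was 18.1-fold in wildtype cells (14.6 to 22.4, log2 change -4.18 ± 0.12, SE, n = 2, limma adjusted p = 0.000272). Of the 28637 probes, 10 fell further in knockout cells and 7 fell further in wildtype cells.

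Zc3h12a encodes Regnase-1, an endonuclease that cuts the stem-loop of the Il6 message. Its level was 11.26 and 11.08 in knockout LPS cells, against 8.79 and 8.49 in knockout basal cells. In wildtype cells it was 11.17 and 10.98 with LPS, against 8.78 and 8.25 at basal state. The LPS and basal measurements did not overlap in either genotype, and the lowest basal value was that of wildtype replicate 2. The rise was 5.80-fold in knockout cells (4.40 to 7.63, limma adjusted p = 0.0010) and 5.89-fold in wildtype cells (4.07 to 8.54, limma adjusted p = 0.00145), with 95% confidence intervals in parentheses and n = 2.

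Zfp36, the gene of tristetraprolin, was at 10.57 and 10.79 in knockout LPS cells, against 9.31 and 9.13 in knockout basal cells. Wildtype values were 10.03 and 10.49 with LPS, against 9.19 and 8.82 at basal state. All LPS values lay above all basal values. The log2 rise was 1.46 ± 0.13 in knockout cells and 1.25 ± 0.21 in wildtype cells (SE, n = 2, limma adjusted p = 0.00249 and 0.0102), a fold of 2.75 and 2.38. Without basal replicate 2 the wildtype rise was 1.07 and lost its call (limma adjusted p = 0.0604).

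Zc3h12c encodes Regnase-3, of the same nuclease family. It was at 9.58 and 9.47 in knockout LPS cells, against 8.76 and 8.67 in knockout basal cells. Wildtype cells gave 9.33 and 9.66 with LPS, against 8.62 and 8.45 at basal state. The LPS values again lay above every basal value. The log2 rise was 0.81 ± 0.11 in knockout cells and 0.96 ± 0.15 in wildtype cells (SE, n = 2, limma adjusted p = 0.00601 and 0.00801). Without basal replicate 2 the call was lost in both genotypes (limma adjusted p = 0.0567 and 0.0582).

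Rc3h1, which encodes roquin-1, was set apart by its LPS replicates. Its brighter probe read 12.22 and 11.18 in knockout LPS cells, against 11.29 and 11.11 in knockout basal cells. In wildtype cells it read 12.17 and 11.24 with LPS, against 11.21 and 11.19 at basal state. LPS replicate 1 was high in both channels and LPS replicate 2 was near the basal level, so the groups overlapped in knockout cells and nearly met in wildtype cells. The gap between the LPS replicates was 1.04 in the knockout channel and 0.92 in the wildtype channel. The dimmer probe read 10.16 and 9.53 in knockout LPS cells, against 9.01 and 8.93 in knockout basal cells. Wildtype cells gave 10.08 and 9.59 with LPS, against 9.02 and 8.85 at basal state. Here all LPS values lay above all basal ones. Its replicate gaps were 0.63 and 0.49. The log2 change was 0.50 ± 0.36 in knockout and 0.50 ± 0.31 in wildtype cells by the brighter probe (SE, n = 2, limma adjusted p = 0.321 and 0.262). By the dimmer probe it was 0.88 ± 0.23 in knockout and 0.90 ± 0.19 in wildtype cells (SE, n = 2, limma adjusted p = 0.0373 and 0.0195). Without LPS replicate 2 the brighter probe passed, with changes of 1.02 and 0.96 (limma adjusted p = 0.00872 and 0.00777). The call of the dimmer probe was lost without basal replicate 1 (limma adjusted p = 0.136 and 0.0725) or basal replicate 2 (0.168 and 0.110), and in knockout cells with the processed signals (0.0520). Across all 28637 probes the difference between LPS replicates correlated between the 2 channels at r = 0.80, and that between basal replicates at r = 0.56. This is a description, since the channels of an array share spots and hybridisation. What set LPS replicate 1 apart for Rc3h1 was not tested.

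Zfp36l1 encodes another tristetraprolin paralog that binds AU-rich elements. It was at 12.95 and 13.28 in knockout LPS cells, against 13.36 and 13.13 in knockout basal cells. Wildtype values were 13.49 and 13.21 with LPS, against 13.06 and 13.08 at basal state. The groups overlapped in knockout cells and did not in wildtype cells, where both LPS values were the higher. The log2 change was -0.13 ± 0.16 in knockout cells (95% confidence interval -0.56 to 0.30) and 0.28 ± 0.13 in wildtype cells (-0.059 to 0.62), and neither passed (limma adjusted p = 0.569 and 0.151, n = 2). Without LPS replicate 2 the wildtype change was 0.42 and passed (limma adjusted p = 0.0491).

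Elavl1, the gene of the stabilising protein HuR, stayed within a narrow range by its brighter probe. It read 13.02 and 12.94 in knockout LPS cells, against 12.73 and 12.98 in knockout basal cells. Wildtype readings were 13.18 and 13.13 with LPS, against 12.81 and 13.05 at basal state. LPS and basal values overlapped in knockout cells, and in wildtype cells both LPS values were the higher by a small margin. The log2 change was 0.13 ± 0.13 (95% confidence interval -0.21 to 0.47) in knockout and 0.23 ± 0.12 (-0.084 to 0.54) in wildtype cells. Its dimmer probe ranged from 7.88 to 8.16 over all 8 measurements and gave changes of -0.20 ± 0.10 and 0.023 ± 0.11 (SE, n = 2). Neither probe passed in either genotype, with limma adjusted p from 0.189 to 0.879, and the probes disagreed in sign in knockout cells.

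Khsrp, which encodes KSRP, read 14.53 and 14.49 in knockout LPS cells by its brighter probe, against 14.73 and 14.63 in knockout basal cells. Wildtype readings were 14.73 and 14.54 with LPS, against 14.86 and 14.70 at basal state. Both knockout LPS values lay below both basal ones, and the wildtype groups overlapped. The change was -0.16 ± 0.10 in knockout and -0.15 ± 0.12 in wildtype cells, whereas the dimmer probe, between 6.83 and 7.25 throughout, gave 0.26 ± 0.13 and 0.20 ± 0.12 (log2, SE, n = 2). The 2 probes thus had opposite signs and neither passed (limma adjusted p from 0.173 to 0.383).

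**Figure D2:**
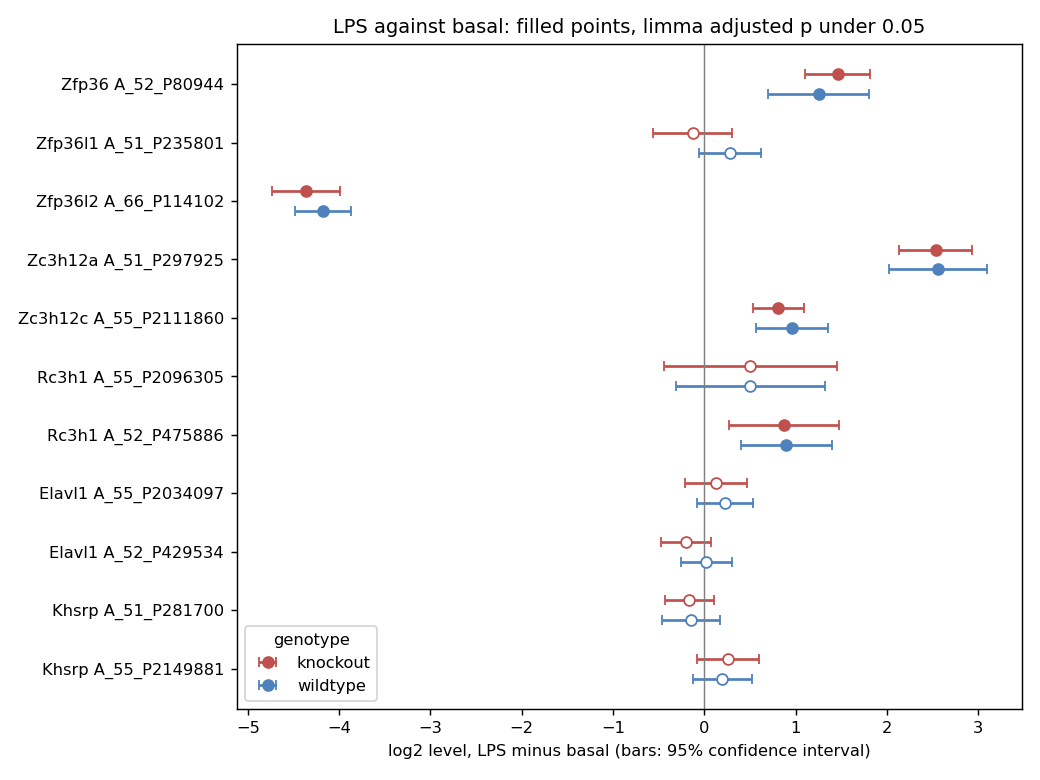
Log2 level with LPS minus basal for the 11 probes in knockout (red, upper) and wildtype (blue, lower) cells, with 95% confidence intervals. Filled points passed the limma threshold: Zfp36, Zfp36l2, Zc3h12a, Zc3h12c and the dimmer probe of Rc3h1 passed in both genotypes.

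Read by the brighter probe, 3 of the 8 genes rose and 1 fell in each genotype, so 4 of 8 passed. Over all genes and accessions 42.1% passed in knockout cells and 41.8% in wildtype cells. The share among the decay factors was therefore near the share on the whole array. The direction of the 4 genes that passed was the same under all alternatives run. Scaling each channel to its 75th percentile moved the median of all probes by 0.35 in knockout and 0.36 in wildtype cells. It turned the split of calls to 12731 higher and 5003 lower in knockout cells, against 5518 and 6542, and to 13724 higher and 5018 lower in wildtype cells, against 5284 and 6705. Relative to that shift, Zfp36l2 fell by 4.31 in knockout and 4.13 in wildtype cells, and Zc3h12a rose by 2.25 and 2.27. Zfp36 rose by 1.14 in knockout and 0.93 in wildtype cells on the same relative scale, and Zc3h12c by 0.47 and 0.62. Under that scaling both brighter and dimmer Khsrp probes and the brighter Elavl1 probe also passed in both genotypes, and Zfp36l1 passed in wildtype cells, at no more than 0.32 above the shift. Among the 12 neutrophil markers 7 rose and 1 fell with LPS in knockout cells, and 9 rose in wildtype cells, and of 8 markers of eosinophils, mast cells and basophils 3 rose in knockout and 7 in wildtype cells. Macrophage and dendritic cell markers moved as well. Of 8 macrophage markers 2 rose and 3 fell in each genotype, and their summed level was 93518 to 123129 in knockout LPS cells against 195722 to 238644 in knockout basal cells, and 114623 to 125573 in wildtype LPS cells against 197563 to 199691 in wildtype basal cells. Of 8 dendritic cell markers 4 rose and 2 fell in knockout cells, and 3 rose and 2 fell in wildtype cells. Their summed level was 316786 to 352955 in knockout LPS cells against 218158 to 230807 in knockout basal cells, and 311594 to 322433 in wildtype LPS cells against 220931 to 224387 in wildtype basal cells. In lists of 5 B cell, 7 T and NK cell, 2 erythroid and 5 stromal markers measured, 1, 1, 1 and 2 rose in knockout cells. In wildtype cells 1, 2, 1 and 1 rose in the same order, and none fell in either genotype. The part of these marker lists in the changes of the decay factors was not tested.

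Knockout against wildtype asked whether loss of Cdk5r1 alters these factors. At basal state none of the 8 genes passed in limma, where 4.83% of all genes and accessions did, 3.36% higher and 1.48% lower. Zfp36 had an unadjusted p of 0.0477 there, the only one of the 8 below 0.05. With LPS, Zfp36 alone passed, 1 of 8, where 12.1% of all did. With 8 genes these shares do not set the factors apart from the array as a whole. Since no array swapped the dyes, genotype and any dye effect on a probe cannot be told apart in these ratios.

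Zfp36 had log2 ratios of knockout over wildtype of 0.54 and 0.31 on the LPS arrays and 0.12 and 0.31 on the basal arrays. All 4 ratios were above 0, and LPS replicate 1 was the highest. The LPS ratio was 0.42 ± 0.089 (SE, n = 2, limma adjusted p = 0.0296), a level 1.34-fold higher in knockout cells, with a 95% confidence interval of 1.16 to 1.55. The basal ratio was 0.22 ± 0.089 (limma adjusted p = 0.256). The LPS call was lost under 6 of 14 alternatives, with limma adjusted p from 0.00581 to 0.267 over all 14 and a ratio of 0.31 to 0.56. The adjusted p was 0.0594 with the replicate number as a block, 0.267 without LPS replicate 1, 0.0985 without LPS replicate 2, 0.0508 in a separate-channel model, 0.113 with the processed signals and 0.111 with the authors' value table. On the same LPS arrays 8 of the 12 neutrophil markers were lower in knockout cells and none higher, and 7 of 12 were lower on the basal arrays. The 12 include Retnlg, which passed the filter through the wildtype channel alone, so a lower value of Retnlg is no independent count. Of 8 markers of eosinophils, mast cells and basophils, 1 was higher and 4 lower with LPS, and 2 higher and 3 lower at basal state. Of 8 macrophage markers, 2 were lower with LPS and 1 at basal state, with none higher. Of 8 dendritic cell markers, 1 was higher and 1 lower with LPS, and none passed at basal state. Of 5 stromal markers, 1 was lower with LPS and 1 at basal state, and none was higher. No measured B cell, T and NK cell or erythroid marker passed in either condition. The part of these marker lists in the Zfp36 ratio was not tested.

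No other member passed between genotypes. Zfp36l2 had ratios of -0.072 and -0.48 with LPS and -0.10 and -0.075 at basal state, all below 0, with LPS replicate 2 the lowest. Its LPS ratio was -0.27 ± 0.10 (SE, n = 2, limma adjusted p = 0.140). Zfp36l1 had -0.54 and 0.073 with LPS and 0.31 and 0.042 at basal state, so that LPS replicate 1 differed in sign from the other 3 arrays. Zc3h12a had 0.094 and 0.10 with LPS and 0.0057 and 0.24 at basal state, all above 0 and none past the threshold (limma adjusted p = 0.476 and 0.470). For Zc3h12a the 95% confidence interval of the LPS ratio was -0.094 to 0.29. Zc3h12c had 0.24 and -0.18 with LPS and 0.14 and 0.22 at basal state, and the 2 LPS arrays disagreed in sign. By the brighter probe Rc3h1 had 0.054 and -0.064 with LPS and 0.074 and -0.083 at basal state, so the high LPS replicate 1 of Rc3h1 was high in both channels alike.

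The brighter Elavl1 probe had -0.16 and -0.19 with LPS and -0.081 and -0.066 at basal state, all below 0. Its LPS ratio was -0.17 ± 0.067, which did not pass (SE, n = 2, limma adjusted p = 0.146). The brighter Khsrp probe was also below 0 on all 4 arrays, from -0.20 to -0.050, and did not pass (limma adjusted p = 0.323 with LPS and 0.490 at basal state). Centring each array on its median instead of fitting loess turned the brighter Elavl1 and Khsrp probes to positive ratios, and Zfp36 and Zfp36l1 then passed at basal state, at 0.35 and 0.44 (limma adjusted p = 0.0440 and 0.0411). Over all probes it gave 5361 higher and 1011 lower probes with LPS, against 1904 and 1382, and 4282 higher and 736 lower at basal state, against 884 and 406.

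The difference between the knockout ratio with LPS and that at basal state was tested directly, which removes a constant dye effect. None of the 8 genes passed in limma, where 0.420% of all genes and accessions did. Zfp36 differed by 0.21 ± 0.13 (95% confidence interval -0.094 to 0.51, limma adjusted p = 0.660). Zfp36l1 had the largest difference of the brighter probes, -0.41 ± 0.21 (-0.90 to 0.082, limma adjusted p = 0.578). Zfp36l2 differed by -0.19 ± 0.15 (-0.53 to 0.16), and Zc3h12a by -0.024 ± 0.11 (-0.29 to 0.25), n = 2 arrays per condition throughout. Zc3h12c differed by -0.15 ± 0.15 (-0.51 to 0.21). The intervals of Zfp36, Zfp36l1, Zfp36l2, Zc3h12c and the dimmer Elavl1 probe (-0.47 to 0.017) hold a difference as large as the LPS ratio of Zfp36, in 1 direction each.

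**Figure D3:**
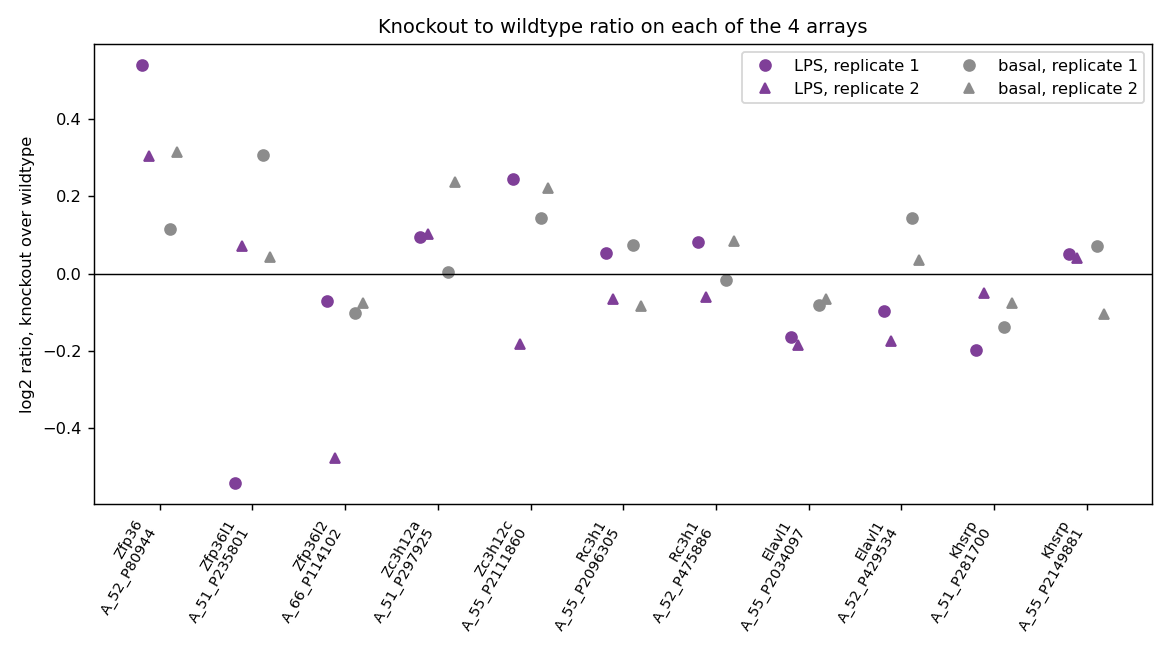
Log2 ratio of knockout over wildtype for the 11 probes on each array, LPS (purple) left of basal (grey), circles for replicate 1 and triangles for replicate 2. Zfp36 is above 0 on all 4 arrays (0.12 to 0.54), and Zfp36l1 spans -0.54 to 0.31.

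For each gene, the 3 genes with the most similar profile over the 8 channel measurements were found among 13061 others that were well above background throughout. Likeness was the root mean square distance of centred log2 levels. For Zfp36l2 they were Ier5l, E2f2 and Cebpa, at distances of 0.14, 0.17 and 0.21 against a median of 2.11 over all candidates. E2f2 is a cell cycle transcription factor and Cebpa a myeloid one, and their own LPS changes were -4.46 and -3.93 in knockout cells and -4.15 and -4.13 in wildtype cells. For Zc3h12a they were Nampt, Irf1 and Tapbpl (0.097, 0.10 and 0.11 against a median of 1.34). Irf1 is an interferon-induced transcription factor, and it rose by 2.44 in knockout and 2.42 in wildtype cells. The genes nearest to Zfp36 were Chpt1, Dtd1 and Psmd10, those nearest to Zc3h12c were Ube2e1, Zfp324 and Pkp4, and those nearest to Rc3h1 were Cln3, Rbms2 and Fndc3b. For Elavl1 they were Hnrnpd, Zfp518b and Eif2s2, with Hnrnpd, which encodes the AU-rich element binding protein AUF1, at a distance of 0.042. Zfp36l1 lay nearest to Hnrnph3, Sh2d7 and Ubp1, and Khsrp to Anapc2, Ubr1 and C330007P06Rik. The 8 measurements share 4 arrays, and likeness here describes these profiles only.

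The machinery around the 8 factors was read from 7 lists. Of all genes and accessions, 19.2% rose and 22.9% fell with LPS in knockout cells, and 18.4% rose and 23.5% fell in wildtype cells, with medians of -0.013 and -0.0053. Each list is set beside these values by counts alone.

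Among 27 other proteins that bind AU-rich or stem-loop elements, 11 rose and 5 fell in knockout cells, and 9 rose and 6 fell in wildtype cells, with medians of 0.13 and 0.11. Arid5a, whose product protects the Il6 message, rose by 2.84 ± 0.11 in knockout and 2.75 ± 0.11 in wildtype cells (log2, SE, n = 2, limma adjusted p = 0.000498 and 0.000408). Celf2, of the CELF family of RNA-binding proteins, had changes of -1.26 in knockout and -1.27 in wildtype cells, and its other probes gave -1.07 and -0.59 in knockout and -1.09 and -0.67 in wildtype cells. Elavl4, a HuR relative known from neurons, rose by 1.24 in knockout cells, and Igf2bp2, which encodes an RNA-binding protein that stabilises messages, rose by 1.1 in wildtype cells. The other Igf2bp2 probe rose by 1.64 in knockout and 1.55 in wildtype cells. Each of these genes is named for the genotype where its change was among the 3 largest. None of the 27 passed for the difference of the knockout ratio between LPS and basal state, where 0.420% of all genes and accessions did. Under 75th percentile scaling 13 of the 27 rose and 3 fell in knockout cells, and 16 rose and 4 fell in wildtype cells.

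The deadenylation list of 25 genes split evenly, with 4 higher and 4 lower in knockout cells and 5 higher and 4 lower in wildtype cells. With 75th percentile scaling these were 7 higher and 5 lower in knockout cells and 7 higher and 4 lower in wildtype cells. Tob1 and Tob2, adaptors of the CCR4-NOT deadenylase, fell by 1.07 and 1.04 in knockout cells and by 1.02 and 1.04 in wildtype cells. Tent5a, a poly(A) polymerase, rose by 1.1 in knockout and 1.02 in wildtype cells. Among 21 decapping and exonuclease genes 8 rose and 5 fell in knockout cells, and 8 rose and 6 fell in wildtype cells. The decapping enzyme Dcp2 rose by 1.99 in knockout and 2.03 in wildtype cells, and the exonuclease Xrn1 by 1.88 and 1.81. Lsm2, a subunit of the Lsm ring, fell by 1.66 in knockout and 1.36 in wildtype cells, though its other probe gave -0.34 and -0.22.

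The list of the exosome, which degrades RNA from its 3′ end, and of other genes of decay from that end had 16 measured genes, of which 9 fell, 1 rose and 6 did not pass in each genotype, with medians of -0.68 in knockout and -0.50 in wildtype cells. Exosc7 changed by -1.94 in knockout and -1.69 in wildtype cells, Exosc6 by -1.81 and -1.5, and Exosc5 by -1.76 and -1.6 (limma adjusted p from 0.00190 to 0.0145, n = 2). The member that rose was Exosc9, by 0.69 in knockout and 0.60 in wildtype cells, named after its value was seen. With 75th percentile scaling 9 fell and 2 rose in knockout cells, and 8 fell and 3 rose in wildtype cells.

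Of 12 nonsense-mediated decay genes, whose helicase UPF1 works with Regnase-1, 4 rose and 5 fell in knockout cells and 4 rose and 4 fell in wildtype cells. Upf3b, an adaptor of that helicase, fell by 1.47 in knockout and 1.23 in wildtype cells. Of 22 kinases, phosphatases and adaptors that act on the decay factors, 5 rose and 6 fell in knockout cells, and 6 rose and 6 fell in wildtype cells. Under 75th percentile scaling these counts were 11 higher and 4 lower in each genotype. Of the 22, Map2k6 was not well above background on any LPS array in either genotype. It passed the filter through the basal arrays alone, so its fall is no independent count. It is named by its detection, after the data were seen. Among the other 21, 5 rose and 5 fell in knockout cells and 6 rose and 5 fell in wildtype cells. Dusp1, the phosphatase that switches off p38, rose by 2.59 ± 0.37 in knockout and 1.66 ± 0.15 in wildtype cells (SE, n = 2, limma adjusted p = 0.00754 and 0.00195). Mapk14, the gene of p38 alpha, fell by 2.41 in knockout and 1.76 in wildtype cells, with -1.14 and -0.93 by its other probe. Ikbkb, a kinase of the NF-kappaB pathway, rose by 2.07 in knockout and 1.75 in wildtype cells.

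**Figure D4:**
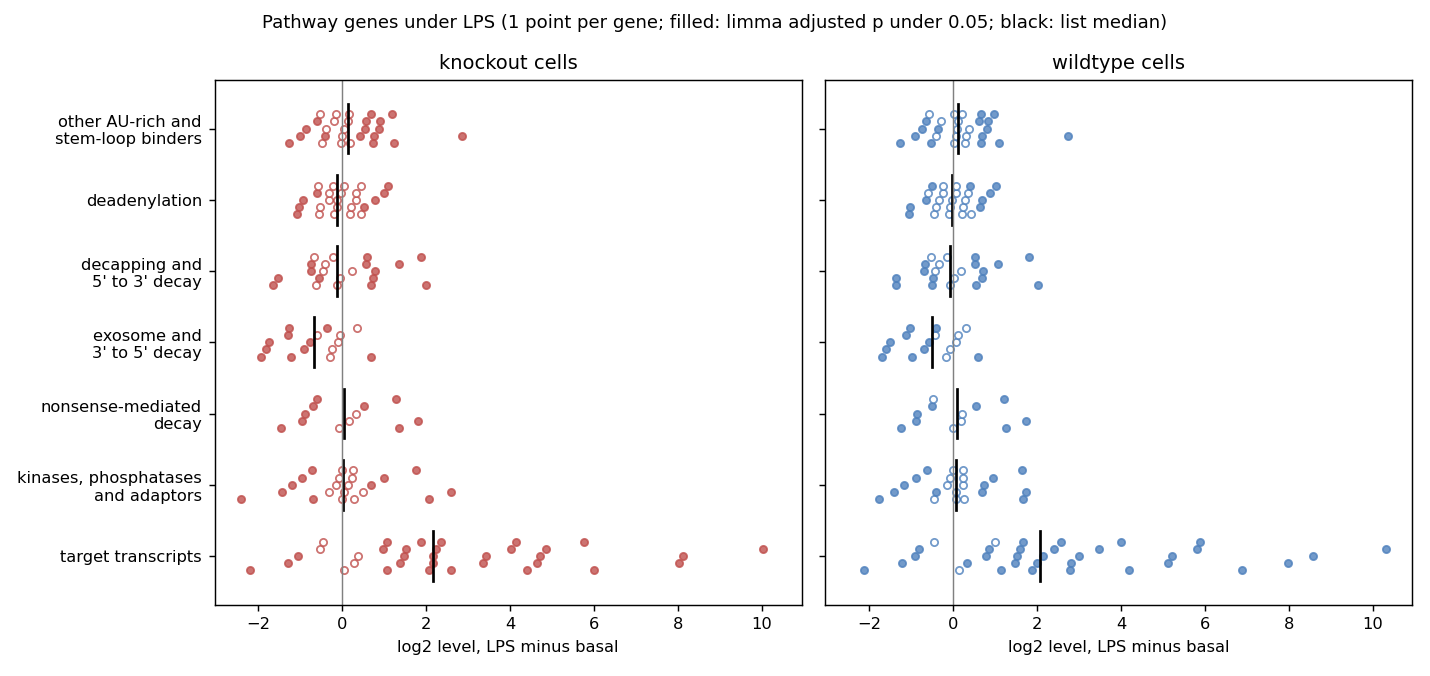
Log2 level with LPS minus basal for the genes of the 7 lists, knockout cells left and wildtype cells right, 1 point per gene. Filled points passed the limma threshold and black bars are list medians. The target transcripts have medians of 2.17 in knockout and 2.07 in wildtype cells, with 6 of 34 not well above background at basal state, and the exosome list has -0.68 and -0.50.

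The 34 measured target transcripts are messages known to carry AU-rich or stem-loop elements. With LPS, 26 rose and 3 fell in knockout cells and 27 rose and 4 fell in wildtype cells, with medians of 2.17 and 2.07. Of these, Csf2, Csf3, Cxcl1, Il10, Il12a and Il23a were not well above background on any basal array in either genotype, so they passed the filter through LPS alone and their rise is no independent count. They are named by their detection, after the data were seen. Among the other 28 targets, 20 rose and 3 fell in knockout cells and 21 rose and 4 fell in wildtype cells, with medians of 2.12 and 1.94. Il6 rose by 10.02 ± 0.13 in knockout and 10.31 ± 0.15 in wildtype cells (log2, SE, n = 2, limma adjusted p = 0.000293 and 0.000199), and Il1b by 8.02 and 8.58. Ptgs2, the prostaglandin synthase gene, rose by 8.13 in knockout and 7.98 in wildtype cells. It was well above background on only 1 of the 2 knockout basal arrays.

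Of the same targets, several differed between genotypes. With LPS, 14 of 34 targets were lower and 5 higher in knockout cells, where 5.11% of all genes and accessions were lower and 7.01% higher. The list median was -0.15. Cxcl3, a neutrophil-attracting chemokine, had a ratio of -1.07 ± 0.089, and Il10, the anti-inflammatory cytokine, had a ratio of 1.91 ± 0.067 (SE, n = 2, limma adjusted p = 0.00107 and 3.3e-05). Dusp1 was higher by 0.95 ± 0.17 (limma adjusted p = 0.0185). Dusp1 is also in the list of kinases, phosphatases and adaptors, so the same calls count in both lists. Lcn2, which is also a neutrophil marker, had ratios of -0.61 with LPS and -0.54 at basal state, and it was the 1 target that passed at basal state. The difference of the knockout ratio between LPS and basal state was -1.16 ± 0.13 for Cxcl3 (SE, limma adjusted p = 0.0238). None is given for Il10, whose basal ratio is one of values not well above background. The direction of the targets as a list depended on the scaling, since median centring gave 10 higher and 6 lower with LPS. The marker counts given beside Zfp36 apply here too, and the part of those marker lists in the target ratios was not tested.

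**Figure D5:**
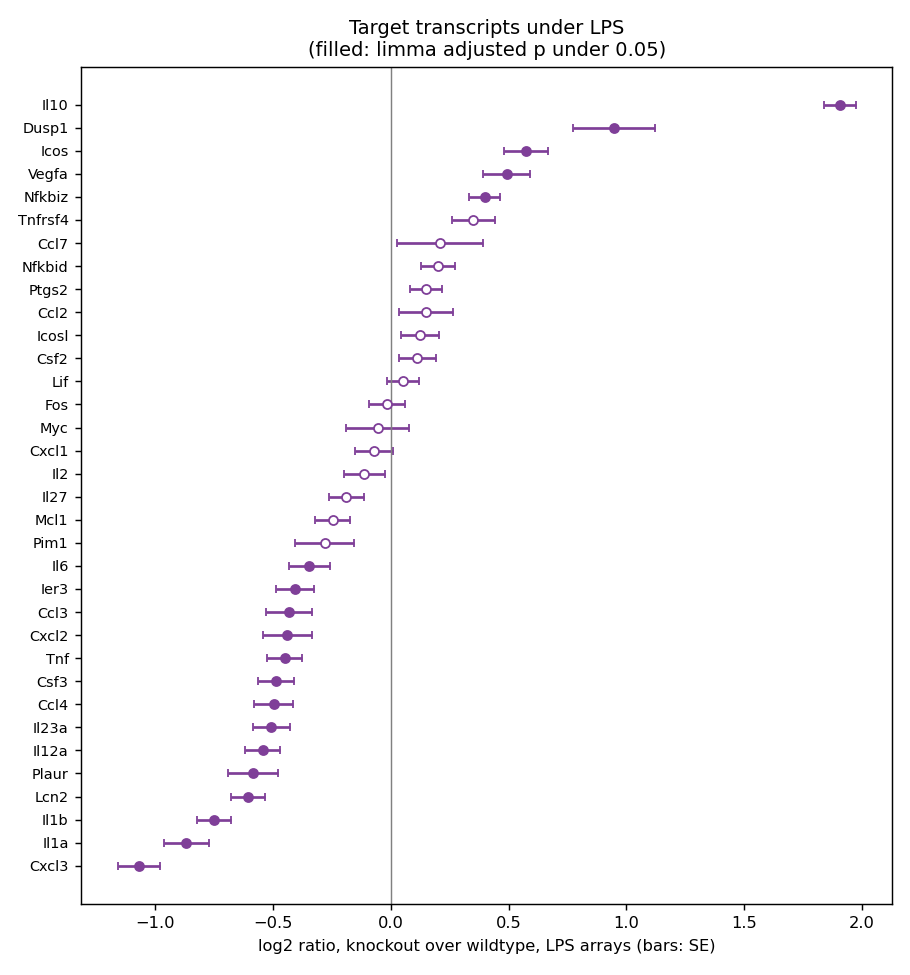
Log2 ratio of knockout over wildtype on the LPS arrays for the 34 target transcripts, with SE bars and n = 2 arrays. Filled points passed the limma threshold, 14 below 0 and 5 above, from Cxcl3 at -1.07 to Il10 at 1.91.

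In the other lists fewer genes passed between genotypes. None of the 25 deadenylation genes passed at basal state or with LPS, while median centring called 7 and 3 of them higher in knockout cells. With LPS 3 of the 27 other binding proteins were higher and none lower, and of the 22 kinases, phosphatases and adaptors 1 was higher and 4 lower, against 6 higher and 1 lower with median centring. Over all genes and accessions 7.01% were higher and 5.11% lower with LPS, and 3.36% higher and 1.48% lower at basal state. With so few genes these counts do not set the lists apart from the array as a whole. Lsm14a, a decapping activator, was higher in knockout cells by 0.66 with LPS and 0.57 at basal state, and Exosc9 by 0.62 and 0.53. Mapk14 was lower by 0.71 ± 0.067 with LPS (limma adjusted p = 0.00177), with -0.31 by its other probe, and Mapkapk3, a p38 substrate kinase, was lower by 0.45. Elavl4 was higher in knockout cells by 1.21 with LPS and 0.81 at basal state. Zc3h12b, a regnase relative, was not well above background in wildtype cells on any array. Its level in knockout cells was at least 2.57-fold higher with LPS and at least 2.90-fold higher at basal state. That bound takes the wildtype channel's own floor and is open to dye bias. With LPS the floor was the wildtype level itself, so the bound is the plain ratio. Zc3h12b passed the filter through the knockout channel alone. Its call, counted among the 3 higher binding proteins, is thus no independent count.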

How the data were processed

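The deposited scanner files hold median foreground and background intensity per spot and channel. Their headers name Feature Extraction 11.5.1.1, and the submitters' processing notes name 9.3.2.1. Log2 ratios, knockout over wildtype, fill the authors' value table, which served as an alternative. Intensities were background-corrected with normexp (offset 50), normalised by loess within arrays and Aquantile between arrays, and fitted with limma 3.58.1 in R 4.3.3. The design had named mean intensities, and the median columns that the files hold were used. A probe was kept if well above background in at least 1 channel on 2 or more of 4 arrays. The fit was per probe, with 5 comparisons, Benjamini-Hochberg adjustment over 28637 probes, two-sided tests and a threshold of 0.05. The number of arrays limits the precision. Outlier-flagged spots were left out. Accessions were matched to symbols through a RefSeq table of GRCm38.p6, and 27508 of 39429 probes matched. Probe coordinates are left out, since per the file headers they are on mm9. Of the list genes, 3 exosome genes and 1 target found no match.

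Every probe of the 8 genes is named. From each list the text names at most 3 genes per comparison, those with the largest change among those past the threshold. A result of 1 list gene is not reported here. The 8 genes and all lists were chosen with earlier results of these data known. Alternatives covered the background correction, scaling, filter, probe choice, each array left out, a separate-channel model and the authors' table. The replicate numbers are not said to pair arrays, so the fit has no block. The model was run on simulated data with planted changes, to see whether their size was recovered. The simulated noise was independent between channels and held no dye effect, unlike these arrays, so it says nothing on the calls made here.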

Additional observations from a re-analysis of the deposited data

Results flagged for a closer look

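The dimmer Elavl1 probe had ratios of knockout over wildtype of -0.096 and -0.18 on the LPS arrays and 0.15 and 0.035 on the basal arrays, so every array of a condition lay on its own side of 0. The difference, LPS minus basal, was -0.23 ± 0.10 (log2, SE, n = 2 per condition) and did not pass in limma (adjusted p = 0.534, and 0.424 to 0.767 over the alternatives). The brighter Elavl1 probe was below 0 on all 4 arrays and differed by -0.10 ± 0.095.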

How the results depend on the processing

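Only 2 arrays stand behind each condition, with no dye swap. All 11 probes passed the filter on dim probes, but the offset understates differences of dim ones such as the dimmer Khsrp probe. Over 762 recomputed values of single probes, 685 kept their direction and their side of the threshold, 14 lost their call, 10 gained one with the same sign and 53 changed sign, all 53 from values not past the threshold. Of those 53, 3 passed with the new sign, so 13 values gained a call in all. The count of LPS calls in wildtype cells, 4 genes, was 7 with 75th percentile scaling and 2 to 6 with an array left out (2 without basal replicate 2). In knockout cells, with 4 genes too, it was 6 with 75th percentile scaling and 3 to 5 with an array left out. Knockout against wildtype at basal state gave 2 genes with median centring, against 0. With LPS it gave 2 genes with median centring, against 1, and 0 with the processed signals, the authors' value table, the replicate block and the separate-channel model, and 0 to 1 with an array left out (0 without LPS replicate 1 or LPS replicate 2).

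The labels do not say that replicate numbers pair arrays. Deviations of same-numbered arrays correlated at -0.085 for knockout levels, -0.19 for wildtype levels and -0.17 for ratios. The replicate block moved calls over all probes to 9873 and 9794 for LPS in knockout and wildtype cells, against 12060 and 11989, to 988 and 2333 for the ratios at basal state and with LPS, against 1290 and 3286, and to 59 for their difference, against 115. Beside Zfp36 with LPS it changed no call of a member. Crossing the numbers, chosen after seeing the data, gave 11851, 12641, 1953, 4816 and 325 calls in the same order. Leaving out an LPS array left 647 or 486 calls of the LPS ratio, and leaving out a basal array left 4941 to 5713 of LPS in knockout cells and 6276 to 6657 in wildtype cells. For the difference of ratios, leaving out an array gave 7 to 329 calls, and median centring 270. The stricter filter gave 755 calls of the basal ratio and 27 of the difference. Basal ratio, LPS ratio and difference had 788, 1826 and 24 calls with the processed signals and 823, 1970 and 12 with the authors' value table, and median centring gave 5018 and 6372 calls of the ratios. With 75th percentile scaling LPS calls were 17734 in knockout and 18742 in wildtype cells.

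The values that changed sign follow, in log2, and the cause was not tested. With 75th percentile scaling, LPS in knockout cells gave 0.26 for Zfp36l1 and 0.53 for the brighter Khsrp probe, and in wildtype cells 0.56 for the same Khsrp probe. With the mean over a gene's probes, LPS in knockout cells gave -0.038 for Elavl1 and 0.047 for Khsrp, and in wildtype cells 0.025 for Khsrp. The same setting gave basal ratios of 0.015 for Rc3h1 and 0.0082 for Elavl1, an LPS ratio of 0.0031 for Rc3h1 and a difference of 0.022 for Khsrp. With median centring, LPS ratios were 0.043 for Zfp36l1, 0.19 for Rc3h1, 0.089 for Elavl1 and 0.29 for Khsrp, basal ratios were 0.34 for Zfp36l2, 0.19 for Rc3h1, 0.18 for Elavl1 and 0.27 for Khsrp, and differences were 0.017 for Zc3h12a, 0.0023 for Rc3h1 and 0.023 for Khsrp, each by the brighter probe. With the processed signals, the LPS ratio of Rc3h1 was 0.018, basal ratios were 0.011 for Rc3h1 and 0.081 for the dimmer Khsrp probe, and differences were 0.0027 for Zc3h12a, 0.0078 for Rc3h1 and 0.014 for Khsrp. With the authors' value table, the LPS ratio of Rc3h1 was 0.019, basal ratios were 0.014 for Rc3h1 and 0.043 for the dimmer Khsrp probe, and differences were 0.0053 for Zc3h12a, 0.0053 for Rc3h1 and 0.0052 for Khsrp.

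With an array left out, LPS in knockout cells gave -0.29 to 0.035 for Zfp36l1 and -0.018 to 1.02 for the brighter Rc3h1 probe, and in wildtype cells -0.062 to 0.11 for the dimmer Elavl1 probe. LPS ratios were -0.54 to 0.073 for Zfp36l1, -0.18 to 0.24 for Zc3h12c, and -0.064 to 0.054 and -0.060 to 0.082 for the brighter and dimmer Rc3h1 probes. Basal ratios were -0.083 to 0.074 and -0.015 to 0.084 for the Rc3h1 probes and -0.10 to 0.073 for the dimmer Khsrp probe. Differences were -0.39 to 0.017 for Zfp36l2, -0.14 to 0.092 for Zc3h12a, -0.36 to 0.062 for Zc3h12c, -0.079 to 0.078 and -0.094 to 0.048 for the Rc3h1 probes, and -0.091 to 0.056 and -0.027 to 0.15 for the brighter and dimmer Khsrp probes.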
